A study of Mus musculus with 6 samples.

Results

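The genes described here are 10 genes of the unfolded protein response of the endoplasmic reticulum (ER): Hspa5, Hsp90b1, Xbp1, Ern1, Atf6, Dnajb9, Sdf2l1, Pdia4, Dnajc3 and Creld2. They were chosen by name as known parts or targets of the response, with earlier results of these data known. Every non-control probe whose accession belongs to one of them was taken. All 10 had a probe, out of 20660 genes matched on the array, and 11 of the 55681 probes belonged to them, because Dnajb9 had a pair of probes. RNA was from freshly sorted mammary gland cells of female C57Bl6J mice. The fetal group was 3 samples taken at embryonic day 18.5 (E18.5) and sorted as CD31-, CD45- and Ter119- cells that were EpCAM++ and CD49f+. The adult basal group was 3 samples from mice of 8 to 12 weeks, sorted as CD31-, CD45-, Ter119- and BP-1- cells that were EpCAM+ and CD49f+. Per the study's methods the adult glands were digested overnight and the fetal glands for a much shorter time, so age, gate and digestion cannot be told apart in any difference below.

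The unfolded protein response is the program by which a cell adjusts the folding capacity of the ER to the load of secreted and membrane proteins. The sensors IRE1 (from Ern1), PERK (from Eif2ak3) and ATF6 sit in the ER membrane and are held back by the chaperone BiP (from Hspa5). When released, IRE1 splices the Xbp1 mRNA so that it encodes an active transcription factor, ATF6 is cut to free its own transcription factor domain, and PERK slows translation and favours that of ATF4. XBP1 and ATF6 then raise genes for chaperones, disulfide enzymes and the export of misfolded proteins for degradation.

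Every one of the 10 genes had a higher signal in adult basal than in fetal cells, and for each of the 11 probes all 3 adult basal arrays lay above all 3 fetal arrays. Values are log2 of the quantile normalised spot signal, and differences are fetal minus adult basal, so a negative difference means a higher adult basal signal. The median difference of the 10 genes was -2.84, with a range from -3.65 for Sdf2l1 to -0.55 for Ern1, whereas the median over all 20448 probes tested was -0.03. A probe was called when limma's Holm-adjusted p was at most 0.05 and the difference at least 2-fold. By this rule 8 of the 10 genes were called higher in adult basal and 0 higher in fetal cells. Over all probes tested 5.18% were called higher in adult basal and 5.92% higher in fetal cells. With Benjamini-Hochberg in place of Holm adjustment, 9 of the 10 were called higher in adult basal and 0 higher in fetal cells, beside 14% and 16% of all probes. At an unadjusted p under 0.05, limma placed all 10 genes higher in adult basal and 0 higher in fetal cells, beside 32.3% and 32.4% of all probes. The shares over all probes given here for each rule also apply to the counts by that rule for other lists below. These shares are a background and not a test of any list. Complete separation of the arrays was itself common, with adult basal above fetal for 35% and fetal above adult basal for 34.1% of probes. An exact permutation test of 3 arrays against 3 cannot give a p below 0.1, so the model across all probes carries the tests. In bulk RNA a difference in the share of cells that express a gene and one in RNA per cell cannot be told apart.

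**Figure D1:**
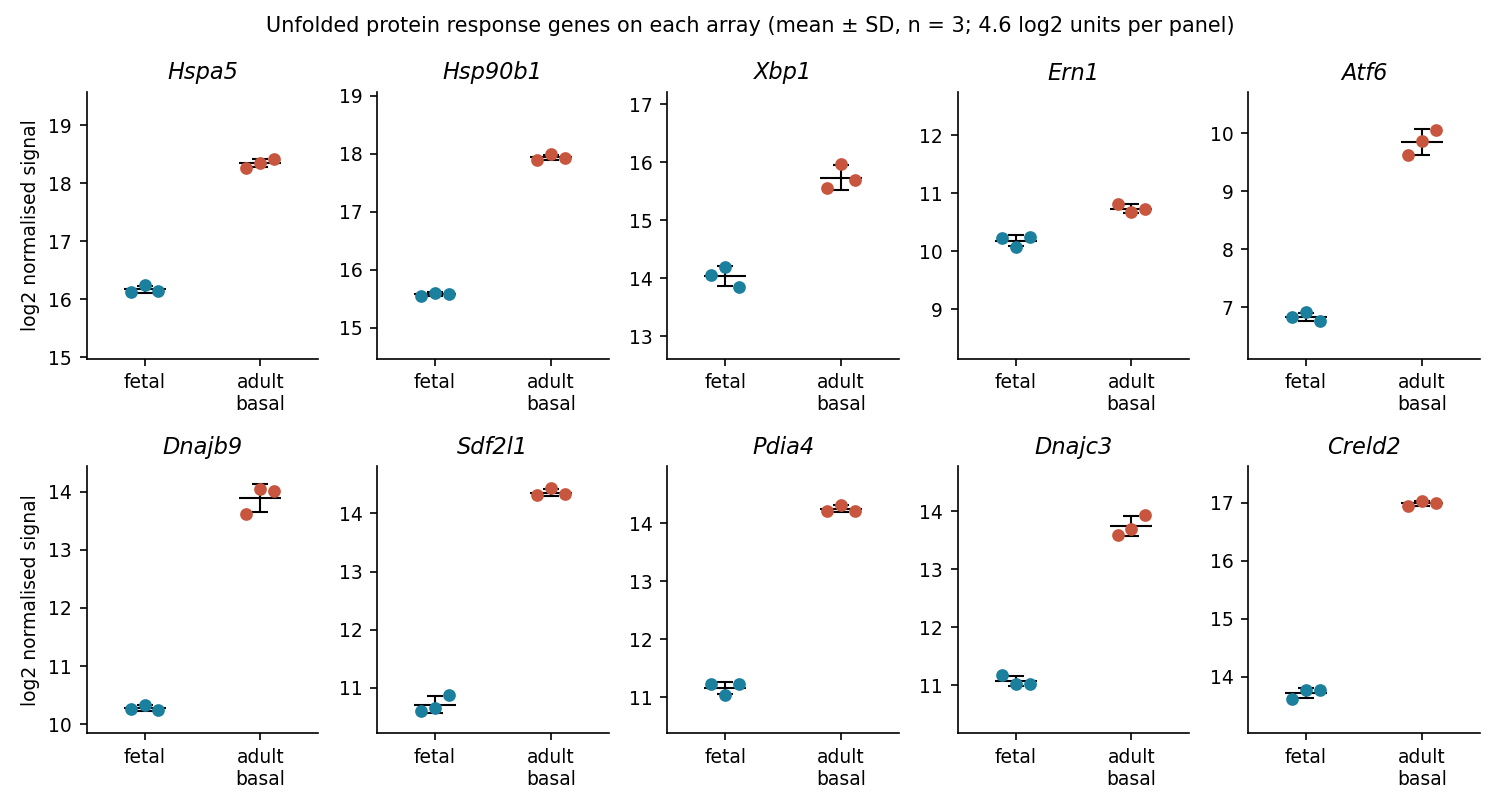
Log2 normalised signal of the 10 unfolded protein response genes on each of the 6 arrays, with 1 panel per gene (the brighter probe for Dnajb9), 1 point per array and bars for mean ± SD (n = 3). Each y axis spans the same number of log2 units from a different base, and in all 10 panels the adult basal points lie above the fetal points, by the least for Ern1.

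The promoters of these genes are shown next because a DNA element that ATF6 and XBP1 are known to use, the ER stress response element, can be looked for in them. It was searched as CCAAT followed after exactly 9 bases by CCACG, on both strands, from 250 bases before to 50 after the start of each RefSeq gene (assembly GRCm38.p6). Promoters were found for 9 of the 10 genes, all but Atf6. The pair of motifs at that spacing was present in 4 of the 9, those of Hspa5, Hsp90b1, Dnajc3 and Creld2, and in 0.119% of the 32851 promoters in the table. Hsp90b1 held it at 2 places. The matches, each with 5 bases on either side, are given below from 5′ to 3′ on the strand of the gene, with CCAAT and CCACG (or their reverse complements ATTGG and CGTGG) in capitals.
Hspa5, chr2:34772020-34772048, + strand: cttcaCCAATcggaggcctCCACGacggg
Hsp90b1 first match, chr10:86705633-86705661, - strand: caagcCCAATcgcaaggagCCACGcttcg
Hsp90b1 second match, chr10:86705528-86705556, - strand: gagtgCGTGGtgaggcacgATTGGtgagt
Dnajc3, chr14:118937822-118937850, + strand: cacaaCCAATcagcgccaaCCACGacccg
Creld2, chr15:88819515-88819543, + strand: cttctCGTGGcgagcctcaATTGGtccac

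All the matches lay upstream of the start. The Hspa5 match ended 47 bases and the Dnajc3 match 87 bases before it, and that of Creld2, in the opposite orientation, 108 bases before it. In Hsp90b1 the first match ended 194 bases and the second, in the opposite orientation, 89 bases before the start. CCACG alone, which includes the matches above, was found in 8 of the 9 promoters (all but Xbp1) beside 32.8% of all promoters, and CCAAT alone in 7 of 9 beside 37.4%. TGACGTGG, another site of ATF6 and XBP1, was found in 0 of the 9 promoters and in 0.676% of all. The 4 genes with a match differed by between -3.27 (Creld2) and -2.17 (Hspa5), and the 5 with no match in this window by -3.65 (Sdf2l1), -3.62 (Dnajb9), -3.09 (Pdia4), -1.70 (Xbp1) and -0.55 (Ern1), so that the ranges overlapped.

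Among the chaperones, Hspa5 encodes BiP, the main Hsp70 chaperone of the ER. Its log2 signal was 16.13, 16.24 and 16.15 on fetal arrays 1 to 3 and 18.27, 18.35 and 18.42 on adult basal arrays 1 to 3. The adult basal arrays were all at least 2 log2 units above the fetal ones and the spread within a group was small. The difference was -2.17 ± 0.10 (SE, 95% CI -2.40 to -1.94, n = 3 and 3), or 4.50-fold higher in adult basal cells (limma, Holm-adjusted p = 0.00138).

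Hsp90b1 encodes GRP94, the Hsp90 chaperone of the ER. The fetal arrays read 15.54, 15.60 and 15.59 and the adult basal arrays 17.89, 17.99 and 17.93. These were the tightest fetal values of the 10 genes, with an SD of 0.03 (n = 3). Adult basal cells were 5.14-fold higher, a difference of -2.36 ± 0.09 (SE; limma, Holm-adjusted p = 0.0005). No spot was saturated on any array.

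Of the sensors, Ern1, which encodes the kinase and RNase IRE1, differed least. It read 10.24, 10.07 and 10.24 in fetal and 10.81, 10.67 and 10.72 in adult basal cells. The groups did not overlap, but the gap between the nearest arrays was smaller than for any other of the 10 genes. The difference of -0.55 ± 0.10 (SE, 95% CI -0.79 to -0.31) was 1.47-fold and was called by neither rule, with a Holm-adjusted p of 1 and a Benjamini-Hochberg adjusted p of 0.00242 (limma).

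Atf6 encodes the sensor that is cut in the Golgi to release a transcription factor. Its values were 6.82, 6.91 and 6.76 in fetal and 9.62, 9.87 and 10.06 in adult basal cells. The groups were far apart, and the probe passed the scanner software's flag for signal clearly over background on every array. Adult basal cells were 8.11-fold higher, with a difference of -3.02 ± 0.13 (SE; limma, Holm-adjusted p = 0.00125), which was -2.48 with a normexp background correction. The mRNAs of these sensors thus differed by unequal amounts, Ern1 by -0.55 and Atf6 by -3.02, with intervals that did not overlap.

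Xbp1 encodes the transcription factor whose mRNA IRE1 splices. It read 14.06, 14.20 and 13.85 in fetal and 15.55, 15.97 and 15.69 in adult basal cells, and both groups were more spread than for most of the other genes (SD 0.17 and 0.22, n = 3). The difference of -1.70 ± 0.15 (SE, 95% CI -2.05 to -1.35), 3.25-fold, was called only by the Benjamini-Hochberg rule (limma, adjusted p = 5.06e-05) and missed the Holm rule with an adjusted p of 0.127. It measured -1.56 within slide 1 and -1.95 within slide 2. The share of Xbp1 mRNA that was spliced was not measured here.

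The remaining genes are targets of the response. Dnajb9 encodes ERdj4, a J-domain partner of BiP that promotes the degradation of misfolded proteins. Its brighter probe read 10.26, 10.33 and 10.24 in fetal and 13.62, 14.05 and 14.01 in adult basal cells. Adult basal array 1 was the lowest of its group, still far above the fetal arrays. The difference was -3.62 ± 0.14 (SE; limma, Holm-adjusted p = 0.000398), 12.3-fold higher in adult basal cells. The second probe of the gene read 7.94, 7.67 and 7.81 against 10.83, 11.08 and 11.16, a difference of -3.22 ± 0.13 (SE; limma, Holm-adjusted p = 0.000626).

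Sdf2l1 encodes an ER protein that works with the J-domain co-chaperones of BiP. The fetal arrays read 10.59, 10.65 and 10.88 and the adult basal arrays 14.31, 14.44 and 14.33. With a difference of -3.65 ± 0.11 (SE; limma, Holm-adjusted p = 0.000103), 12.6-fold, it changed most of the 10 genes, although its interval (-3.92 to -3.39) overlapped that of Dnajb9 (-3.94 to -3.30).

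Creld2, a secreted ER stress protein with EGF-like domains and disulfide isomerase activity, read 13.62, 13.77 and 13.77 in fetal and 16.94, 17.03 and 16.99 in adult basal cells. Its adult basal arrays were the tightest of the 10 genes, with an SD of 0.04 (n = 3). The difference was -3.27 ± 0.10 (SE; limma, Holm-adjusted p = 7.75e-05), or 9.62-fold.

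Pdia4 encodes ERp72, a protein disulfide isomerase. It read 11.22, 11.04 and 11.23 in fetal and 14.22, 14.32 and 14.22 in adult basal cells, with no overlap. Adult basal cells were 8.50-fold higher, with a difference of -3.09 ± 0.10 (SE; limma, Holm-adjusted p = 0.000165).

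Dnajc3 encodes p58IPK, a J-domain co-chaperone of BiP that is also known as an inhibitor of PERK. Its fetal values were 11.18, 11.03 and 11.02 and its adult basal values 13.59, 13.70 and 13.93. The difference of -2.66 ± 0.12 (SE; limma, Holm-adjusted p = 0.00152) was 6.33-fold.

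**Figure D2:**
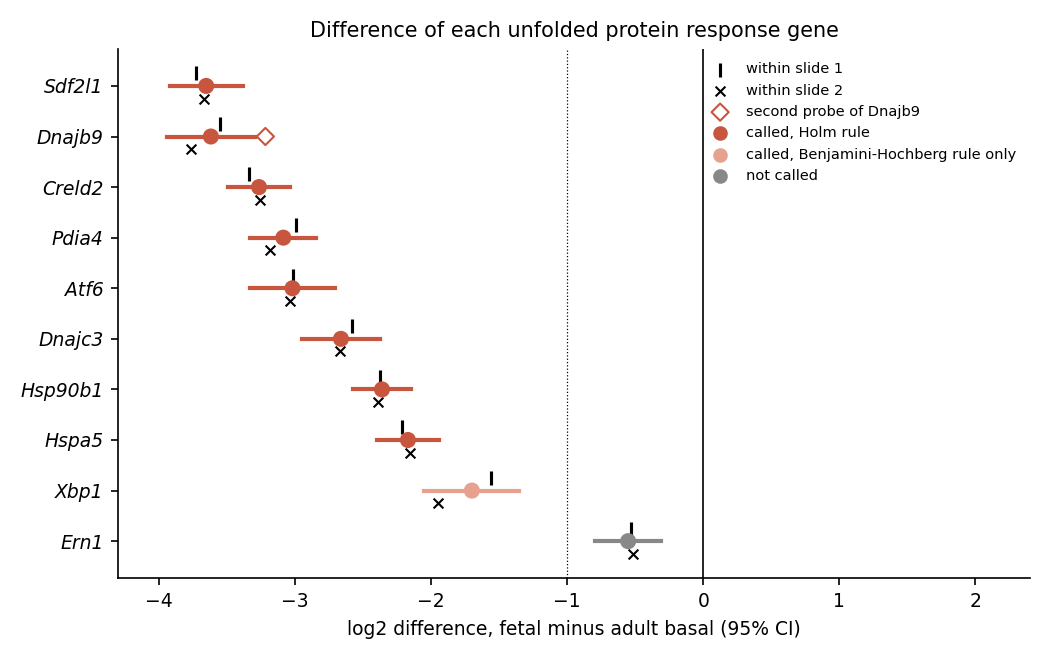
Difference in log2 signal (fetal minus adult basal) of the 10 genes, sorted by size, with 95% confidence intervals from the limma fit; black marks give the difference within each slide and the open diamond the second probe of Dnajb9. Sdf2l1 lies furthest from 0 at -3.65 and Ern1 nearest at -0.55, and the dotted line marks a 2-fold difference.

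Sorted by size, each gene's interval overlapped that of the next gene in the plot of differences, except between Xbp1 and Ern1. Overlap of intervals does not by itself settle the order of neighbours, and no test of a gene against the next was run. The arrays were on 2 slides: fetal 1, adult basal 1 and adult basal 3 shared slide 1, and fetal 2, fetal 3 and adult basal 2 shared slide 2. Within slide 1 the median difference of the 10 genes was -2.79 and within slide 2 it was -2.85. With slide as a block in the limma fit the 8 calls were kept. Their Holm-adjusted p then lay between 0.000572 (Sdf2l1) and 0.0121 (Hspa5). Xbp1 and Ern1 stayed uncalled, with a Holm-adjusted p of 0.341 and of 1. Among the adult basal arrays, 9 of the 10 genes were below their group mean on array 1 and 8 were above it on array 2, with medians of -0.06 and 0.05 log2 units. These deviations were small beside the differences between the populations.

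Other genes of the pathway were grouped by role. Among 14 further sensors and transducers tested, 2 were called higher in adult basal and 1 higher in fetal cells, with a median difference of -0.56. Over all probes 5.18% and 5.92% were called in these directions. At an unadjusted p under 0.05, limma placed 8 of the 14 higher in adult basal and 2 higher in fetal cells (all probes, 32.3% and 32.4%). Wfs1, an ER membrane protein, differed by -4.18 ± 0.11 (SE; limma, Holm-adjusted p = 3.23e-05) and Bhlha15, which encodes the secretory cell transcription factor MIST1, by -3.73 ± 0.19 (Holm-adjusted p = 0.00295). Creb3l4, an ER-bound transcription factor of the ATF6 type, went the other way (1.76 ± 0.13, SE; limma, Holm-adjusted p = 0.0425). This call was lost with any 1 of the 6 arrays left out (limma, Holm-adjusted p between 0.12 and 0.55), with slide or replicate number as a block (0.25 and 0.24), and under each other filter or set of probes tried (0.27 without the low-signal filter). Eif2ak3, the gene of the sensor PERK, read 9.93 ± 0.15 in fetal and 10.79 ± 0.29 in adult basal cells (SD, n = 3). Its difference of -0.86 ± 0.17 (SE) was called by neither rule (limma, Holm-adjusted p = 1, Benjamini-Hochberg adjusted p = 0.00284).

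In the PERK and ATF4 arm, 6 of 11 genes were called higher in adult basal and 0 higher in fetal cells (median -1.32). The count of 6 fell to 2 without fetal replicate 1 or 2, and to 3 without fetal replicate 3, without adult basal replicate 3 or with the replicate number as a block. They included Chac1 (-3.51 ± 0.15, SE), a glutathione-degrading enzyme, and Ddit3 (-3.08 ± 0.15), which encodes the transcription factor CHOP. Asns, asparagine synthetase, differed by -2.87 ± 0.15, and Ppp1r15a, which encodes GADD34, a phosphatase subunit that restores translation, by -2.0 ± 0.11. Trib3 (-1.94 ± 0.13) and Nfe2l2 (-1.32 ± 0.10) were called too, but neither with slide as a block (Holm-adjusted p = 0.11 and 0.16, limma). Atf4 itself differed by -0.96 ± 0.14 (SE) and was called by neither rule, with a Benjamini-Hochberg adjusted p of 0.000752 (limma). At an unadjusted p under 0.05, 9 of the 11 were higher in adult basal and 2 higher in fetal cells (all probes, 32.3% and 32.4%). Atf3, singled out after its value was seen, was the gene of this arm that the Benjamini-Hochberg rule called higher in fetal cells (1.27 ± 0.17, SE). The activity of PERK was not measured here.

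Further ER chaperones and co-chaperones were called higher in adult basal cells for 6 of 19 genes and higher in fetal cells for 0 (median -1.05; at an unadjusted p under 0.05, 15 and 2). The count of 6 was 2 without fetal replicate 2 and 3 without fetal replicate 1 or adult basal replicate 1. Hyou1, the nucleotide exchange factor of BiP also called GRP170, differed by -3.63 ± 0.13 (SE) and Manf, a secreted ER stress protein, by -2.79 ± 0.13. The prolyl isomerases Fkbp11 and Fkbp7 differed by -2.76 ± 0.14 and -2.23 ± 0.12. Calr, which encodes the lectin chaperone calreticulin, differed by -1.90 ± 0.11 (limma, Holm-adjusted p = 0.00717, or 0.055 with slide as a block). Its membrane-bound relative Canx, calnexin, differed by -1.09 ± 0.10 and was called only by the Benjamini-Hochberg rule (adjusted p = 5.4e-05). Dnajb11, another J-domain partner of BiP, was called by its brighter probe (-1.85 ± 0.11), whereas its other probe differed by 0.11.

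Of 15 further enzymes of disulfide formation, 6 were called higher in adult basal and 0 higher in fetal cells (median -1.28; at an unadjusted p under 0.05, 12 and 2). Without fetal replicate 1 the Holm rule called 2 of them, and it called 3 without fetal replicate 2 or 3, without adult basal replicate 3 or with the replicate number as a block. The ER oxidases that regenerate the disulfide isomerases had the largest differences, Ero1a at -4.91 ± 0.18 (SE) and Ero1b at -4.04 ± 0.18. The disulfide isomerases P4hb (-2.52 ± 0.13), Pdia6 (-1.72 ± 0.10) and Pdia3 (-1.51 ± 0.11) and the thioredoxin-like Txndc11 (-2.15 ± 0.13) were also called, and Pdia3 was not with slide as a block (Holm-adjusted p = 0.18, limma). Prdx4, an ER peroxidase singled out after its value was seen, was called by the Benjamini-Hochberg rule as higher in fetal cells (1.08 ± 0.10).

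The genes of ER-associated degradation, which return misfolded proteins to the cytosol for the proteasome, were all higher in adult basal cells by their means, 19 of 19. The Holm rule called 8 of them and 0 in the other direction (median -1.24; at an unadjusted p under 0.05, 18 and 0). It called 3, 4 and 5 without fetal replicates 1, 2 and 3, and 5 without adult basal replicate 3. Derl3, a derlin of the export channel, had the largest difference of any pathway gene described here (-5.64 ± 0.14, SE, 49.9-fold; limma, Holm-adjusted p = 2.21e-05). Herpud1, which organises the ubiquitin ligase, differed by -4.59 ± 0.20. The ligase Syvn1 (HRD1) differed by -2.71 ± 0.13 and its partner Sel1l by -2.97 ± 0.15. Edem1, a lectin for misfolded glycoproteins, differed by -2.58 ± 0.16 and was not called with slide as a block (Holm-adjusted p = 0.063, limma). Selenos, a selenoprotein of the export complex, differed by -2.29 ± 0.12.

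The translocon and signal peptidase, through which proteins enter the ER, had 2 of 18 genes called higher in adult basal and 0 higher in fetal cells (median -0.91; at an unadjusted p under 0.05, 16 and 1). They were the signal peptidase subunit Sec11c (-2.66 ± 0.10, SE) and the signal recognition particle receptor gene Srpr (-1.54 ± 0.11, not called with slide as a block, limma Holm-adjusted p = 0.18). With any 1 array left out, or with the replicate number as a block, 1 was called. Sec61b, a subunit of the channel, differed by -0.37 ± 0.13 and was called by neither rule. Across these lists outside the 10 genes, 31 genes were called by the Holm rule, and all 31 had the same direction within both slides, 24 of them also being called with slide as a block. With each array left out in turn, 12 of the 31 kept their call every time: Wfs1, Bhlha15, Chac1, Ddit3, Hyou1, Manf, Ero1a, Ero1b, Derl3, Herpud1, Syvn1 and Sec11c. The other 19 lost it without at least 1 array, whereas the 8 called genes among the 10 kept it in each such fit.

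The chaperones of the cytosol and mitochondria, which serve the heat shock response rather than the ER, had a median difference in the other direction, at 0.45. None of the 13 tested was called by the Holm rule in either direction, although at an unadjusted p under 0.05 limma placed 9 higher in fetal and 2 higher in adult basal cells (all probes, 32.4% and 32.3%). By their means 10 of the 13 had a higher mean in fetal cells. Hspe1, the mitochondrial co-chaperonin, singled out after its value was seen, was called by the Benjamini-Hochberg rule as higher in fetal cells (1.48 ± 0.13, SE). Among the remaining genes of this list, Hspa1a is nearly identical to Hspa1b, and its value may include both.

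**Figure D3:**
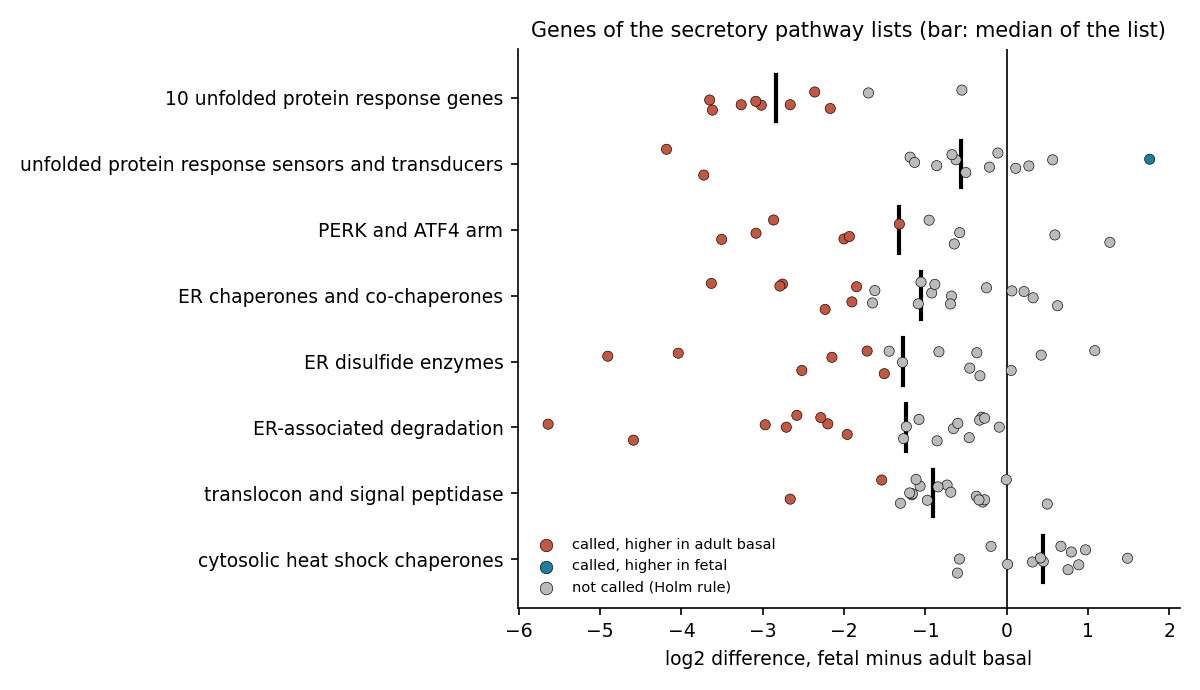
Difference in log2 signal (fetal minus adult basal) of every tested gene in the 8 pathway lists, 1 point per gene, red or blue where the Holm rule called it and grey where not, with a black bar at the median of each list. The medians of the 7 ER lists lie below 0, from -2.84 to -0.56, and that of the cytosolic heat shock chaperones lies at 0.45.

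The signals of the 10 genes summed over a fetal array came to between 157690 and 168184 units, and over an adult basal array to between 799968 and 867018 units of normalised signal, with Hspa5 the brightest. The ratio of the group means was 5.20 towards adult basal cells. Among the other ER lists the same ratio was 3.68 for ER-associated degradation, 2.73 for the disulfide enzymes and 2.29 for the PERK and ATF4 arm. It was 2.25 for the further ER chaperones, 1.61 for the translocon and signal peptidase, and 1.43 for the further sensors and transducers. For the cytosolic heat shock chaperones it was 0.82.

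All genes of the promoter table that hold the same element were also looked at. The pair of motifs occurred in the promoters of 37 genes of the table, of which 24 had a probe and 20 were tested. Of these, 9 were called higher in adult basal and 0 higher in fetal cells by the Holm rule, and 10 and 4 by the Benjamini-Hochberg rule. Without Hspa5, Hsp90b1, Dnajc3 and Creld2, 16 tested genes were left, of which the Holm rule called 5 higher in adult basal cells: Derl3, Ero1b, Syvn1, Calr and Pdia6. The median difference of the 16 was -0.37. All 5 belong to the lists of ER genes described above. Of the 10 tested genes with the element that stand in none of the lists, the Holm rule called 0 in either direction (limma, 2 higher in adult basal and 5 higher in fetal cells at an unadjusted p under 0.05), and the Benjamini-Hochberg rule called 0 higher in adult basal and 4 higher in fetal cells. The median difference of these 10 was 0.21. The genes named in the rest of this paragraph were chosen after their values were seen. Alg12, an ER mannosyltransferase, shares a promoter with Creld2, their windows overlapping by 173 bases around the same motif match on opposite strands. Alg12 differed by -0.16 ± 0.12 (SE; limma, Holm-adjusted p = 1) where Creld2 differed by -3.27. Calr4, a relative of calreticulin, had a higher fetal signal (2.10 ± 0.25) and was called only by the Benjamini-Hochberg rule (adjusted p = 0.000233).

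**Figure D4:**
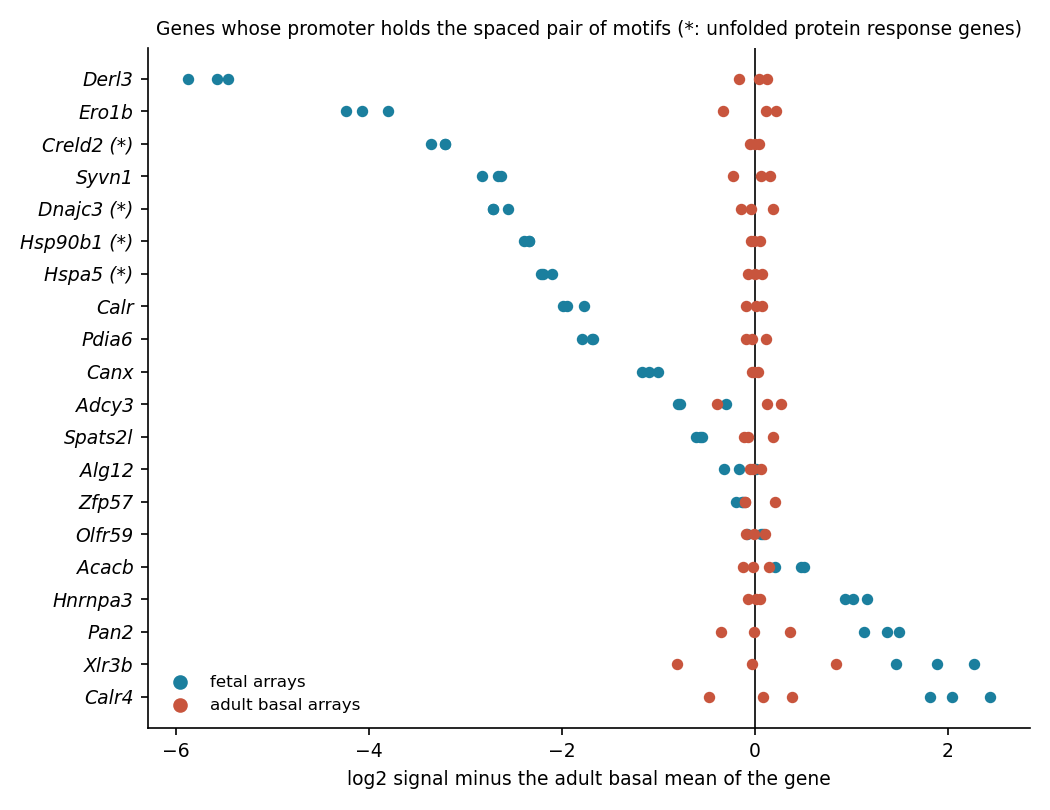
Log2 signal of each array minus the adult basal mean of the same gene, for the 20 tested genes whose promoter holds CCAAT and CCACG at the spacing searched, with fetal arrays in blue and adult basal arrays in red. The fetal points of 10 genes, from Derl3 to Canx, lie more than 1 log2 unit below the adult basal mean on average, and those of 4 genes lie more than 1 unit above it.

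The labels of the sorted cells were checked against marker genes. Of 9 basal markers, 7 were called higher in adult basal cells (median -4.07), among them the smooth muscle genes Myh11 (-8.63 ± 0.18, SE), Cnn1 (-6.01 ± 0.25) and Acta2 (-4.07 ± 0.16), the brightest of the list. Krt14 (-1.20 ± 0.51) and Trp63 (-0.08 ± 0.10) were not called, and a second probe of Trp63 differed by -3.06. Their summed signal lay 15.5-fold higher in adult basal cells. Of 10 luminal markers tested, 4 were called higher in fetal cells: Elf5 (7.55 ± 0.16), Foxa1 (6.46 ± 0.37), Kit (4.0 ± 0.16) and Pgr (2.13 ± 0.13), the last not with slide as a block (limma, Holm-adjusted p = 0.081). Krt19 (-1.22 ± 0.16), singled out after its value was seen, was called higher in adult basal cells by the Benjamini-Hochberg rule, and Prlr differed by -0.35 ± 0.11. The median of the luminal list was 0.51, and its summed signal, led by Krt18, was 1.49-fold higher in fetal cells. Milk protein and salivary secretory genes mark secretory cells. Csn1s1 had a higher fetal signal by 7.80 ± 0.14, and Csn2 was at least 13.7-fold higher in fetal cells, a lower bound because in adult basal cells its probe never rose well above background. Smr3a was at least 69.1-fold higher by the same reckoning. Glycam1 went the other way, at least 22.4-fold higher in adult basal cells. In all, 4 of 7 milk protein genes (brightest Lalba) and 5 of 8 salivary genes (brightest Aqp5) were called higher in fetal cells, and 1 milk protein gene and 0 salivary genes higher in adult basal cells. With a normexp background correction 2 of the milk protein genes were called higher in fetal cells, without Csn3 and Csn1s2a, and Glycam1 was not called without the filter on low signal, or without fetal replicate 1, 2 or 3 or adult basal replicate 1. Of the luminal markers 2 were called without that filter, or without fetal replicate 1, 2 or 3 or adult basal replicate 3.

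Plasma cells are known for a strong form of this response. Of 7 plasma cell markers listed, 5 had a probe and 3 were tested, of which 0 were called by either rule. Prdm1, the brightest, differed by -0.49 ± 0.12 (SE) and Mzb1 by -0.33 ± 0.11, and Jchain and Irf4 were too dim to be tested, Jchain being well above background on 1 of the 3 adult basal arrays. At an unadjusted p under 0.05, limma placed 2 of the 3 tested higher in adult basal and 0 higher in fetal cells (all probes, 32.3% and 32.4%). Of 6 leukocyte and 4 endothelial markers tested, 0 were called by the Holm rule, with 1 and 2 higher in adult basal and 0 and 0 higher in fetal cells at an unadjusted p under 0.05. The Benjamini-Hochberg rule called 1 leukocyte and 2 endothelial markers higher in adult basal cells and 0 higher in fetal cells. The median differences were -0.06 and -0.97, the lowest -1.76 and -2.70, and 5 of the 6 and all 4 had a higher mean in adult basal cells. The summed signals, led by Itgam and Kdr, were 0.95 and 1.05 times as high in adult basal as in fetal cells. All 7 fibroblast markers had a higher mean in adult basal cells (median -0.89), and at an unadjusted p under 0.05 limma placed 6 higher there and 0 higher in fetal cells. The Benjamini-Hochberg rule called 2 and the Holm rule 1 of them higher in adult basal cells, Dcn (-3.78 ± 0.18, the brightest), and the summed signal of the list was 3.07-fold higher in adult basal cells, between 16710 and 27220 units on an adult basal array and between 6240 and 7858 on a fetal one. Dcn was not called without fetal replicate 1. Both sorts took EpCAM-positive cells, and the study places the stromal cells of the fetal gland in the EpCAM- fraction. Stromal cells bearing BP-1 were removed from the adult samples only. The part of fibroblast RNA in the differences of the ER genes was not tested.

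Immediate early genes respond to the handling of tissue, and 7 of 9 had a higher mean in fetal cells. The Holm rule called 1 higher in fetal and 0 higher in adult basal cells, Fosb (2.36 ± 0.12, SE; limma, Holm-adjusted p = 0.00252), and the Benjamini-Hochberg rule called 6 and 0. The Holm count higher in fetal cells was 0 without fetal replicate 1 or 2, 2 without adult basal replicate 2, 4 with normexp or an offset of 16, and 5 with variance trend and robust estimation. Their summed signal, led by Jun, was 2.33-fold higher in fetal cells. The part of the unequal digestion times in these differences was not tested, and the design confounds them with the populations.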

How the data were processed

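RNA of 3 fetal and 3 adult basal samples, called biological replicates in the labels, was hybridised to one-colour Agilent SurePrint G3 Mouse GE arrays. The labels name the Low Input Quick Amp kit and the methods its whole-transcript form. The authors deposited spot intensities from Agilent Feature Extraction 11.0.1.1 (background subtracted, not normalised between arrays) and a table of quantile normalised log2 values, used here as an alternative. Control spots and outlier spots (104 to 326 an array) were left out, log2 processed signals were averaged per probe and quantile normalised. Accessions were matched to RefSeq symbols: 27235 of 55681 probes matched 20660 genes. After k-means (k = 3, seed 1) removal of probes below 5.95 in both populations, 20448 probes (15734 genes) were fitted with lmFit and eBayes (limma 3.58.1, R 4.3.3). The fit was also run on simulated data with independent noise. That run does not bear on slide or array effects. Of several probes the brightest is given.

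The members and lists were chosen with earlier results of these data known. Named were, unless stated, all members, in other lists the Holm-called genes (at most the 6 largest differences), and the best known pathway genes. Lists were described by counts and medians, with no test of the list. Promoter sequences are from RefSeq. The share of probes well above background ran from 76.4% to 83.3% an array, and the number of arrays limits the precision. Lower bounds set the dim group at the higher of its own signal and the lowest signal well above background on each array. Protein sequences were not used here.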

Additional observations from a re-analysis of the deposited data

How the results depend on the processing

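All 10 genes stayed higher in adult basal cells under the 20 alternatives run for each, including each array left out, both blocks, and the differences within each slide. Of the 18 alternatives with a test, which leave out the differences within a slide, each called 8 of them but normexp, trend with robust estimation, and Benjamini-Hochberg adjustment, which also called Xbp1 (adjusted p = 0.0144, 0.00715 and 5.06e-05) and so gave 9. The largest p of a called gene was 0.0393, for Hspa5 with the replicate block. The median difference of the 10 genes was -2.92 in the deposited values, -2.53 with normexp, -2.75 with an offset of 16, -2.79 within slide 1, and between -2.92 and -2.74 with an array left out. The number of probes called on the whole array, 2270, moved far more: it was 1182 without the low-signal filter, which raises the number of tests, 6133 with Benjamini-Hochberg adjustment, and between 952 and 2014 with an array left out (952, 968 and 1072 without fetal replicates 1, 2 and 3, and 1503 and 1335 without adult basal replicates 1 and 3). The cause of the other moves was not tested. With replicate number as a block 1302 probes were called, 8 of the 10 genes among them. Same-numbered fetal and adult basal arrays did not deviate together (correlations of -0.03, 0.09 and 0.05), and not every array correlated best with its own number, so the numbers were not taken to pair the samples. The planned restriction to probes matched to a gene is how the values above were made, and without it, on 37830 probes, 2102 were called, 8 of the 10 genes among them; a planned search of protein ends was not run. Among the 31 other pathway genes called, an alternative chosen after seeing the data left between 13 (without fetal replicate 1) and 31 called; it was 14, 18, 22, 25 and 18 without fetal replicates 2 and 3 and adult basal replicates 1, 2 and 3. The counts of the ER lists called higher in adult basal cells also moved. By the Holm rule they ran from 3 to 9 for ER-associated degradation and 2 to 9 for the ER chaperones. They ran from 2 to 8 for the disulfide enzymes, 2 to 6 for the PERK and ATF4 arm and 1 to 4 for the translocon. Benjamini-Hochberg adjustment gave 11, 10, 8, 6 and 8 for these lists in turn. That rule called 14% of all probes in this direction, beside 5.18% by the Holm rule in the main fit. Among the 10 genes, Atf6 moved most with normexp, from -3.02 to -2.48 on the log2 scale.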
